A study of Mus musculus with 4 samples.

Results

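The Toll-like receptor (TLR) genes *Tlr2*, *Tlr3*, *Tlr4*, *Tlr7*, *Tlr9*, *Tlr11*, *Tlr12* and *Tlr13*, the receptor chaperone *Unc93b1* and the signaling adaptor *Myd88* were examined in CD24+ emergency progenitors (EPs). The genes were chosen by symbol, 10 of the 40213 symbols listed, and the counts of all transcripts listed under a symbol were added. EPs are CD11c+CD117+ cells that expand under Flt3 ligand and give rise to conventional dendritic cells of the XCR1+ type (cDC1s). The study asked how loss of TopBP1, a DNA damage and replication protein, alters the program of these cells. Bulk RNA-seq libraries from the spleen of young adult mice, 2 from WT mice and 2 from mice labelled cKO, were compared. The TopBP1cKO mice carry floxed *Topbp1* alleles (TopBP1 fl/fl) and a CD11c-cre transgene, so that deletion is driven in cells with an active CD11c promoter. The study describes its WT littermate controls as TopBP1 fl/fl, so that both groups carry the floxed alleles. All mice in both groups received 10 μg of Flt3L-Ig i.p. on days 0 and 3, and the EPs were sorted on day 9. The labels do not say whether each library came from a separate mouse, so the P values measure only the spread between these libraries.

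TLRs recognize molecules of microbes and pass the signal to NF-κB and IRF transcription factors. *Tlr2* and *Tlr4* act at the cell surface on lipoproteins and lipopolysaccharide, whereas *Tlr3*, *Tlr7*, *Tlr9*, *Tlr11*, *Tlr12* and *Tlr13* act in endosomes, where *Unc93b1* delivers them from the endoplasmic reticulum. *Myd88* is the adaptor for all of these receptors other than *Tlr3*, which signals through *Ticam1*, and *Tlr3*, *Tlr11* and *Tlr12* are known as receptors of cDC1s.

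The libraries held 14561583 to 15193831 counts, of which the 10 genes took 31010 to 36971. *Topbp1* itself had 1102 and 1143 counts in the WT libraries, but 773 in TopBP1cKO replicate 1 and 1279 in TopBP1cKO replicate 2. The counts are per transcript and do not single out the floxed exons. *Topbp1* was not lower in TopBP1cKO replicate 2, and such counts cannot settle whether the exons were deleted. Its label was therefore not checked by the deleted gene, and the group is referred to as the libraries labelled TopBP1cKO. TopBP1cKO replicate 2 also stood apart in the 10 cell cycle markers, whose summed level there was 1558 CPM. CPM are counts scaled to a common library size with TMM factors. This level was 543 CPM in TopBP1cKO replicate 1 and 442 and 422 CPM in the WT libraries. All 10 cell cycle markers were higher in both libraries labelled TopBP1cKO than in both WT libraries (22.8% of all genes). None of them passed FDR 0.05. All 12 neutrophil markers were higher in both libraries labelled TopBP1cKO than in both WT libraries (22.8% of all genes). Their summed level was 756 to 803 CPM in WT and 2214 to 2237 CPM in the labelled TopBP1cKO libraries. *Ltf*, *S100a8*, *S100a9*, *Lcn2* and *Ngp*, which encode neutrophil granule and calcium-binding proteins, passed FDR 0.05 among these markers (0.105% of all genes). Markers of the labelled cell type were present. The sort markers *Itgax*, *Kit*, *Cd24a* and *Flt3* summed to 2401 to 2790 CPM. Both labelled TopBP1cKO libraries lay below both WT libraries for *Kit*, *Cd24a* and *Flt3* (20.8% of all genes) and above both for *Itgax* (22.8% of all genes). The log2 fold change of *Kit* was −0.30, and none of the 4 passed FDR 0.05. The 8 cDC1 markers summed to 7780 to 8646 CPM. Against WT, 6 of these 8 cDC1 markers fell and 2 rose in mean, at a median log2 fold change of −0.17. None of the 8 passed FDR 0.05. Both labelled TopBP1cKO libraries lay below both WT libraries for *Xcr1*, *Clec9a* and *Cadm1* (20.8% of all genes). They lay above both for *Itgae* (22.8% of all genes). The log2 fold change was −0.51 for *Cadm1* and 0.71 for *Itgae*. The part of these differences in the values below was not tested, and in bulk RNA fewer cells of a type and less RNA per cell cannot be told apart.

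PU.1 and IRF8, the transcription factors whose partnership the study addresses, bind ETS and IRF motifs, so the promoters of the receptor genes were read for them. RefSeq promoter sequence (GRCm38.p6, 250 bases before to 50 bases after the start) was given for 7 of the 10 genes and not for *Tlr4*, *Tlr7* and *Unc93b1*. The 250 upstream bases are shown for the 4 genes with the ETS core in the form GAGGAA or with an IRF element. The IRF element is a pair of GAAA repeats parted by NN, and sites of both kinds are in capitals. The stretch before *Tlr11* lies at chr14:50357664-50357913 on the plus strand, that before *Tlr13* at chrX:106143025-106143274 on the plus strand, that before *Tlr9* at chr9:106222348-106222597 on the plus strand and that before *Myd88* at chr9:119340019-119340268 on the minus strand, each sequence running 5′ to 3′ toward the start of the gene.
Tlr11: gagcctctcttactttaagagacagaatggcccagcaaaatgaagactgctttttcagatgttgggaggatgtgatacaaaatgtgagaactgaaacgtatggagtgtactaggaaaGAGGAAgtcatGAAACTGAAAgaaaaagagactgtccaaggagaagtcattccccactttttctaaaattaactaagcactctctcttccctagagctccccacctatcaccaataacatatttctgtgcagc
Tlr13: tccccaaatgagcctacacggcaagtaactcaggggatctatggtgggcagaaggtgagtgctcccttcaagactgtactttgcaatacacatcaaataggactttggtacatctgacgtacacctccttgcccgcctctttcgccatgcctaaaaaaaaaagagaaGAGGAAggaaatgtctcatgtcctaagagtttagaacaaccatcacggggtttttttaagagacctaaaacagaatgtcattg
Tlr9: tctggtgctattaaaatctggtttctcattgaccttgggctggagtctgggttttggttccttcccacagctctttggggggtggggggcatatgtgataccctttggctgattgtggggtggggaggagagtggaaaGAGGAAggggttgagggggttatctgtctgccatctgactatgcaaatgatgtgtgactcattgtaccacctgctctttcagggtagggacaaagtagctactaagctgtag
Myd88: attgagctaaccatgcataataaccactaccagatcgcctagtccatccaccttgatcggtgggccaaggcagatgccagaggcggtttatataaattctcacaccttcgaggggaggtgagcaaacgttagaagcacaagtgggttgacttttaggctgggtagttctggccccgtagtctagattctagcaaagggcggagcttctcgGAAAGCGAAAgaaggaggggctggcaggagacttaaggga

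The ETS core GAGGAA was found on either strand in 3 of the 7 windows (*Tlr9*, *Tlr11* and *Tlr13*), and 28.3% of the 32851 windows hold it. The shorter GGAA was not counted alone, and windows without GAGGAA can hold it, as that of *Myd88* does. In *Tlr11* the core GAGGAA began 133 bases before the start. It was followed by the IRF element GAAACTGAAA, which began 122 bases before the start, and these sites did not overlap. The core began 83 bases before the start in *Tlr13* and 112 bases before it in *Tlr9*. The IRF element was found in 2 of the 7 windows (*Tlr11* and *Myd88*, where GAAAGCGAAA began 40 bases before the start) against 3.44% of all windows. The composite ETS and IRF element, GGAA and GAAA parted by NN, was in 0 of the 7 windows and in 2.72% of all. The AP-1 site TGANTCA was in the *Tlr9* window alone among the 7, as TGACTCA beginning 58 bases before the start, and in 7.81% of all windows, and the E-box CANNTG was in 5 of the 7 and in 72.3% of all. These are matches of letters only and were not tied to binding.

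The order of the levels was taken as CPM per kilobase of the longest annotated transcript. *Unc93b1* was the most abundant of the 10 genes on this scale, with 426 ± 19.0 CPM per kilobase in WT EPs (SD, n = 2) and 289 to 439 over the 4 libraries. *Tlr11*, which senses profilin of protozoan parasites, followed with 135 ± 5.88 CPM per kilobase in WT EPs, and *Tlr3*, the sensor of double-stranded RNA, had 95.1 ± 0.588. The ranges of *Tlr11* (103 to 140.0 CPM per kilobase) and *Tlr3* (91.2 to 120.0) overlapped over the 4 libraries, whereas that of *Unc93b1* lay above both.

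*Myd88*, *Tlr9*, *Tlr13* and *Tlr12* formed a middle group with WT means of 51.8, 42.1, 38.9 and 35.8 CPM per kilobase, and each overlapped the next in its range. The surface receptors were lower, with 12.5 CPM per kilobase for *Tlr2* and 6.29 for *Tlr4* in WT EPs, and *Tlr7* was the lowest at 0.885. The ranges of *Tlr12* and *Tlr2*, of *Tlr2* and *Tlr4* and of *Tlr4* and *Tlr7* did not overlap. The order of the group means was the same in the libraries labelled TopBP1cKO except that *Tlr3*, at 106 ± 20.4 CPM per kilobase, lay above *Tlr11*, at 105 ± 3.23, by less than the spread. With the mean length of the annotated transcripts in place of the longest, 3 of the 10 genes kept their rank and *Tlr3* lay above *Tlr11* in the mean of all 4 libraries.

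**Figure D1:**
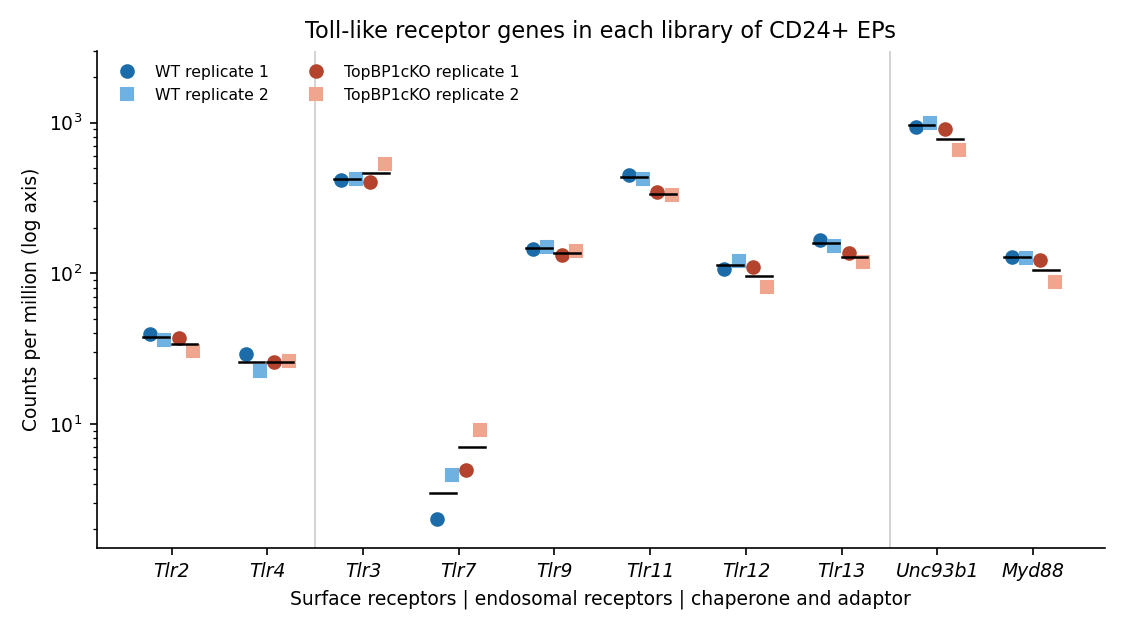
CPM (log axis) of each of the 10 genes in the 4 libraries, with WT in blue and the libraries labelled TopBP1cKO in red, circles for replicate 1, squares for replicate 2 and a black line for each group mean. For *Tlr11* both red points (344 and 329 CPM) lie below both blue points (448 and 421 CPM), for *Tlr7* both lie above, and TopBP1cKO replicate 2 is the lowest point for *Unc93b1* and *Myd88*. CPM are not divided by length here, so that heights compare libraries and not genes.

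The groups were compared gene by gene by the quasi-likelihood test of edgeR over all 12393 genes tested. None of the 10 genes differed at FDR 0.05, and 0.105% of all genes tested did (13 genes). In the libraries labelled TopBP1cKO, 7 of the 10 had the lower and 3 the higher mean, against 48.8% lower among all genes tested, and the median log2 fold change was −0.20 against 0.0084 over all genes. At an unadjusted P of 0.05, 2 were lower (*Tlr11* and *Tlr13*; 3.77% of all genes) and 1 was higher (*Tlr7*; 6.95% of all genes). Both libraries labelled TopBP1cKO lay below both WT libraries for 5 of the 10 (*Tlr9*, *Tlr11*, *Tlr13*, *Unc93b1* and *Myd88*; 20.8% of all genes) and above both for 1 (*Tlr7*; 22.8% of all genes), and the groups overlapped for *Tlr2*, *Tlr3*, *Tlr4* and *Tlr12*. With TopBP1cKO replicate 1 taken alone, 6 lay below both WT libraries (34.3% of all genes) and 1 above (37.0% of all genes), and with TopBP1cKO replicate 2 taken alone, 7 lay below (40.7% of all genes) and 2 above (41.3% of all genes).

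*Tlr11* had the smallest P value of the 10. Its expression was 448 and 421 CPM in WT EPs and 344 and 329 CPM in the libraries labelled TopBP1cKO. The 2 groups did not overlap, and the gap between them was wider than the spread within either. Its log2 fold change of −0.37 (SE 0.12, FDR 0.353) did not pass the adjusted threshold. Leaving out any 1 library kept it from −0.43 to −0.33, and without TopBP1cKO replicate 2 it was −0.35.

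*Tlr12*, the partner of *Tlr11* in the recognition of profilin, was expressed at 107 and 120.1 CPM in WT EPs and at 109.9 and 81.2 CPM in the libraries labelled TopBP1cKO. TopBP1cKO replicate 1 lay between the WT libraries, and replicate 2 alone lay below them. The log2 fold change of −0.25 (SE 0.16, FDR 0.622) was −0.058 without TopBP1cKO replicate 2 and −0.49 without TopBP1cKO replicate 1. The 2 profilin receptors therefore had different profiles over the libraries, with 4.17 and 3.51 *Tlr11* counts per *Tlr12* count in WT EPs and 3.12 and 4.05 in the libraries labelled TopBP1cKO, values that overlap between the groups.

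*Tlr13*, a sensor of bacterial ribosomal RNA, was expressed at 165 and 151 CPM in WT EPs and at 137 and 118 CPM in the libraries labelled TopBP1cKO. Both labelled TopBP1cKO libraries were lower than both WT libraries. Its log2 fold change of −0.31 (SE 0.13, FDR 0.456) ran from −0.43 to −0.21 in the fits that left out 1 library. *Tlr9*, the receptor for unmethylated CpG DNA, was expressed at 145, 148, 131 and 141 CPM in WT replicates 1 and 2 and TopBP1cKO replicates 1 and 2. Its groups were separated by a narrow margin, and the log2 fold change of −0.11 (SE 0.11, FDR 0.771) was within its error.

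*Tlr3* was expressed at 417 and 421 CPM in WT EPs and at 402 and 529 CPM in the libraries labelled TopBP1cKO. The WT libraries differed little, and the labelled TopBP1cKO libraries fell on either side of them. The log2 fold change of 0.15 (SE 0.15, FDR 0.766) became 0.33 without TopBP1cKO replicate 1 and turned to −0.068 without TopBP1cKO replicate 2. *Tlr3* and *Tlr11* thus went apart within the libraries: there were 0.932 and 0.999 *Tlr3* counts per *Tlr11* count in WT EPs, 1.17 in TopBP1cKO replicate 1 and 1.61 in TopBP1cKO replicate 2. Per count of *Xcr1*, the chemokine receptor that marks cDC1s, *Tlr11* had 0.610, 0.559, 0.549 and 0.469 counts in WT replicates 1 and 2 and TopBP1cKO replicates 1 and 2, and *Tlr3* had 0.568, 0.559, 0.642 and 0.754 in the same order. Both ratios were separated between the groups, in opposite directions, and neither was tested. Of the 8 cDC1 markers, only *Xcr1* was used for these ratios, and the separation depends on that choice. *Irf8*, at 2442 and 2514 CPM in WT EPs, was at 2456 and 1933 CPM in the libraries labelled TopBP1cKO. *Tlr3* per *Irf8* was therefore lower in TopBP1cKO replicate 1 than in WT replicate 1. *Xcr1* itself was at 734 and 753 CPM in WT EPs and at 626 and 701 CPM in the libraries labelled TopBP1cKO, so that the higher ratio of *Tlr3* in TopBP1cKO replicate 1, where *Tlr3* was below WT, rests on the lower level of *Xcr1*.

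As a share of the summed length-scaled level of the 8 receptors, *Tlr11* made up 37.6% and 36.2% in WT EPs and 33.0% and 30.5% in the libraries labelled TopBP1cKO. *Tlr3* made up 25.5% and 26.3% in WT EPs and 28.1% and 35.7% in the libraries labelled TopBP1cKO. With these lengths *Tlr11* held the largest share in every library but TopBP1cKO replicate 2, where *Tlr3* did, whereas with the mean transcript length *Tlr3* was the largest in all 4. The share of *Tlr9* stayed between 11.2% and 12.0% in all 4.

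*Tlr7*, the receptor for single-stranded RNA, was expressed at 2.33 and 4.56 CPM in WT EPs (33 and 69 counts) and at 4.92 and 9.05 CPM in the libraries labelled TopBP1cKO (75 and 140 counts). Both labelled TopBP1cKO libraries were above both WT libraries, but WT replicate 2 and TopBP1cKO replicate 1 were close to each other. Its log2 fold change of 1.01 (SE 0.42, FDR 0.456) became 0.50 without TopBP1cKO replicate 2 and 1.57 without WT replicate 2. The summed level of the 6 cDC2 markers had the same order of libraries, with 83.9 and 95.2 CPM in WT EPs and 147 and 205 CPM in the libraries labelled TopBP1cKO. Not every marker had this order, as *Itgam* was at 21.6 and 16.7 CPM in WT EPs and at 44.1 and 77.7 CPM in the others. Of the 6, all had the higher mean, 4 of them without overlap (22.8% of all genes), and the groups overlapped for *Cd209a* and *Mgl2*. The median log2 fold change of the 6 was 0.74 and none passed FDR 0.05. Their part in the *Tlr7* value was not tested. Of 8 pDC markers tested, 4 were higher and 4 lower, and none passed FDR 0.05. Without overlap, 3 lay above WT (*Spib*, *Runx2* and *Ly6d*; 22.8% of all genes) and 2 below (*Bst2* and *Tcf4*; 20.8% of all genes). *Spib* had the library order of *Tlr7*, at 7.49 and 9.26 CPM in WT EPs and 12.7 and 16.7 CPM in the libraries labelled TopBP1cKO (log2 fold change 0.81, FDR 0.337). The pDC markers summed to 239 and 243 CPM in WT EPs and to 219 CPM in both others, *Siglech* was at 5.02 to 7.94 CPM, and their part in the *Tlr7* value was not tested either. Of 11 monocyte and macrophage markers tested, 8 were higher and 3 lower. Among these, *Csf1r*, *Cx3cr1* and *Adgre1* also had the library order of *Tlr7*. *Csf1r* was at 19.4 and 22.6 CPM in WT EPs and at 29.9 and 33.4 CPM in the libraries labelled TopBP1cKO. The part of these markers in the *Tlr7* value was not tested.

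The surface receptors gave no separation of the groups. *Tlr2* was expressed at 39.3, 35.8, 37.0 and 30.5 CPM and *Tlr4* at 28.9, 22.4, 25.6 and 26.1 CPM in WT replicates 1 and 2 and TopBP1cKO replicates 1 and 2. For *Tlr4* both labelled TopBP1cKO libraries lay between the WT libraries. The log2 fold changes were −0.15 (SE 0.15, FDR 0.759) for *Tlr2* and 0.012 (SE 0.17, FDR 0.985) for *Tlr4*, the latter 0.20 without WT replicate 1 and −0.17 without WT replicate 2.

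*Unc93b1* was expressed at 935 and 996 CPM in WT EPs, at 911 CPM in TopBP1cKO replicate 1 and at 655 CPM in TopBP1cKO replicate 2. The groups did not overlap, but TopBP1cKO replicate 1 was close to WT and replicate 2 far below. The log2 fold change of −0.30 (SE 0.18, FDR 0.593) was −0.092 without TopBP1cKO replicate 2 and −0.56 without TopBP1cKO replicate 1. For each count of the 6 endosomal receptors that it carries there were 0.728 and 0.787 *Unc93b1* counts in WT EPs, 0.807 in TopBP1cKO replicate 1 and 0.543 in TopBP1cKO replicate 2, so that the 2 labelled TopBP1cKO libraries lay on opposite sides of WT.

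*Myd88* was expressed at 129 and 126 CPM in WT EPs and at 122 and 87.0 CPM in the libraries labelled TopBP1cKO. It had the pattern of *Unc93b1*, with 0.127 to 0.137 *Myd88* counts per *Unc93b1* count over all 4 libraries. The log2 fold change of −0.28 (SE 0.17, FDR 0.593) was −0.069 without TopBP1cKO replicate 2 and −0.55 without TopBP1cKO replicate 1.

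**Figure D2:**
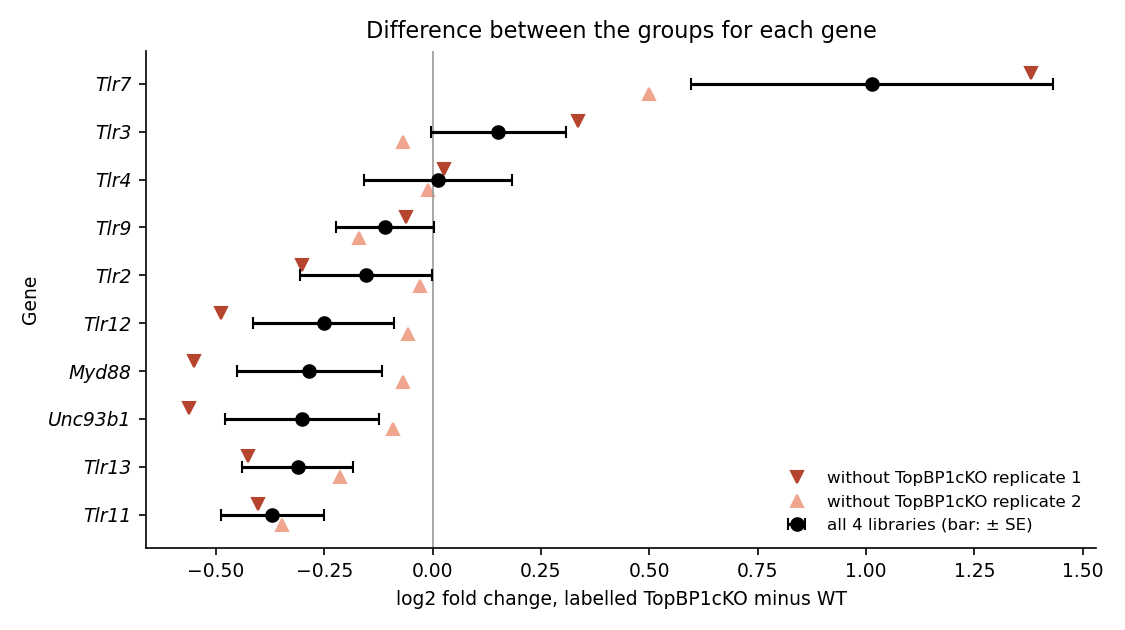
Log2 fold change of each gene, labelled TopBP1cKO minus WT, ordered by size. Black points with bars are the fit to all 4 libraries ± SE, and the triangles are the fits without TopBP1cKO replicate 1 (dark, pointing down) and without TopBP1cKO replicate 2 (light, pointing up). The 2 triangles lie close together for *Tlr11* (−0.40 and −0.35) and far apart for *Unc93b1* (−0.56 and −0.092) and *Myd88* (−0.55 and −0.069).

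TopBP1cKO replicate 2 was the lowest of the 4 libraries for 6 of the 10 genes (35.0% of all genes) and the highest for 2, *Tlr3* and *Tlr7* (34.8% of all genes). In the fit without TopBP1cKO replicate 1, in which a single library stands for the group and is assumed to vary as the WT libraries do, 7 of the 10 passed FDR 0.05, against 20.5% of all genes. These were *Tlr3* and *Tlr7*, which were higher, and *Tlr11*, *Tlr12*, *Tlr13*, *Unc93b1* and *Myd88*, which were lower, with FDR from 0.00114 for *Unc93b1* to 0.0282 for *Tlr3*. In the fit without TopBP1cKO replicate 2, 0 of the 10 passed, against 1.74% of all genes. The cell cycle markers had the same library apart, with a median log2 fold change of 1.85 without TopBP1cKO replicate 1 and 0.33 without TopBP1cKO replicate 2, and their part in these values was not tested. Markers of monocytes and macrophages (12 genes) summed to 1026 to 1085 CPM in WT EPs and to 973 to 1222 CPM in the libraries labelled TopBP1cKO. Of the 11 of these tested, 8 were higher and 3 lower, and none passed FDR 0.05. Without overlap, 4 lay above WT (22.8% of all genes) and 3 below (20.8% of all genes). In the same order of groups, markers of B cells (8 genes) summed to 31.3 to 37.7 CPM and to 38.0 to 45.7 CPM. Those of T cells (5 genes) summed to 3.57 to 3.60 CPM and to 4.66 to 11.9 CPM.

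**Figure D3:**
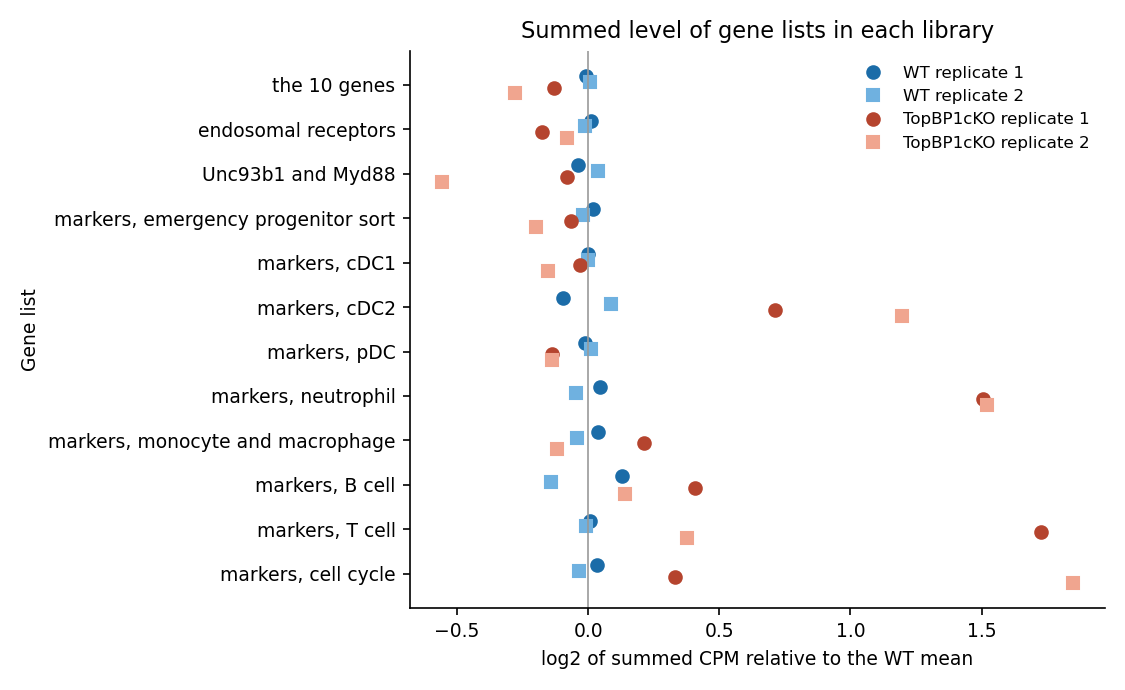
Summed CPM of gene lists in each library, as log2 relative to the mean of the WT libraries, for the 10 genes, subsets of them and the marker lists. The summed endosomal receptors of the libraries labelled TopBP1cKO lie within 0.18 of the WT mean, *Unc93b1* with *Myd88* at −0.081 and −0.56, the neutrophil list at 1.51 and 1.52, and the cell cycle list at 0.33 and 1.85.

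Listing by transcript added another view of the genes with several transcripts. The 10 genes had 28 transcript entries, of which 21 were counted in all 4 libraries, 2 were at 0 in all 4 and 5 were at 0 in 1 to 3 libraries. No entry was at 0 in both libraries of one group and counted in both of the other. *Tlr9*, *Tlr11*, *Tlr12*, *Tlr13* and *Myd88* had 1 entry each, so that no reads had to be divided among entries of these genes.

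*Tlr3* had 8 entries, and its most abundant one held 10.1% and 36.3% of the gene in WT EPs and 28.0% and 41.1% in the libraries labelled TopBP1cKO. One entry was counted in TopBP1cKO replicate 1 alone (556 counts) and another in WT replicate 1 alone (293 counts). By sampling alone a count of 0 allows up to 3 counts. This limit does not cover how reads shared by entries were divided. For *Tlr7* the most abundant entry had 0, 28, 0 and 65 counts and the fourth had 4, 0, 42 and 0 in WT replicates 1 and 2 and TopBP1cKO replicates 1 and 2, so that these entries separated the replicate numbers and not the groups. For *Unc93b1* 1 entry held 91.4% to 93.4% of the counts in every library. Entries of a gene share sequence, and how such reads were divided among them is not given in the sources used here, so that the shares are less certain than the sums.

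**Figure D4:**
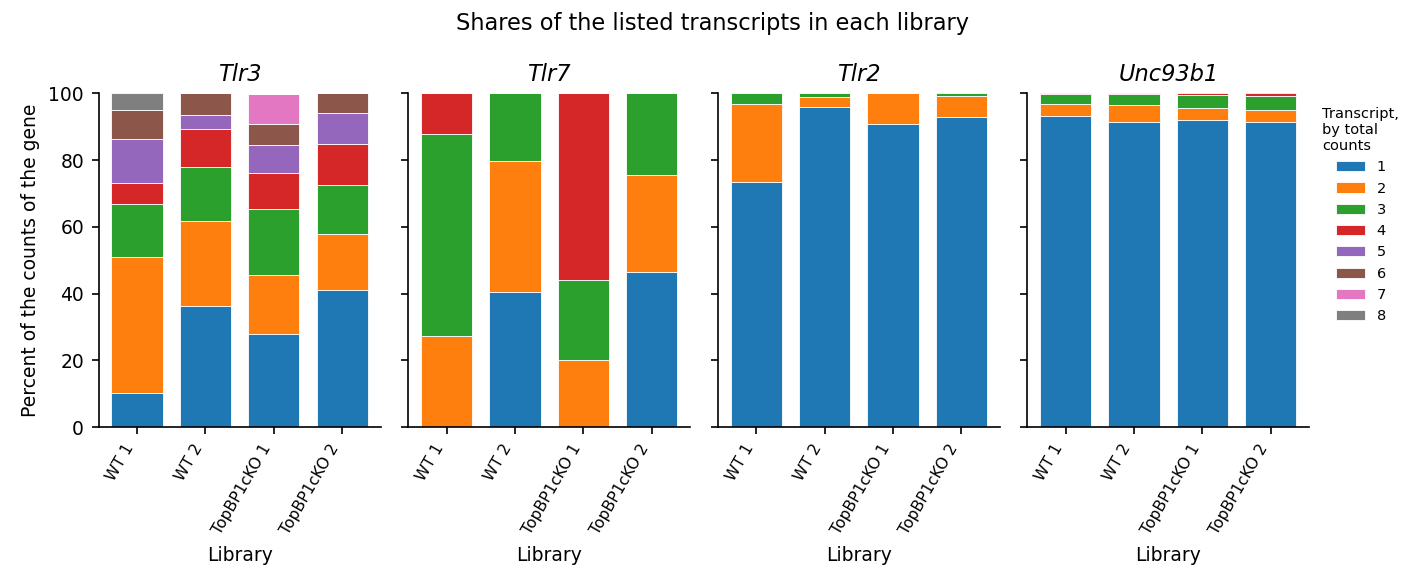
Share of each listed transcript in the counts of its gene, in percent, for *Tlr3*, *Tlr7*, *Tlr2* and *Unc93b1*, with 1 stacked bar per library and colors numbered from the transcript with the most counts. The division within *Tlr3* and *Tlr7* changes from library to library also within a group, whereas transcript 1 of *Unc93b1* stays above 91% in all 4.

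The rest of the TLR pathway was described from a list of 78 genes in 9 roles, of which 73 were tested. None passed FDR 0.05 by the quasi-likelihood test, which 0.105% of all genes passed. By the likelihood ratio test of edgeR 1 passed (*Tlr1*, FDR 0.0464), against 234 of all 12393 genes tested. Of the 73, 31 were higher and 42 lower, and the median log2 fold change was −0.023. At an unadjusted P of 0.05, 5 were higher (6.95% of all genes) and 4 lower (3.77% of all genes). Both libraries labelled TopBP1cKO lay above both WT libraries for 17 of the 73 (22.8% of all genes) and below both for 14 (20.8% of all genes).

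The other TLRs were low in expression, and 3 of 4 were higher in the libraries labelled TopBP1cKO. *Tlr1*, which pairs with *Tlr2*, was at 6.08 and 7.61 CPM in WT EPs and at 11.4 and 16.0 CPM in the libraries labelled TopBP1cKO, a log2 fold change of 1.00 (SE 0.25, FDR 0.307). *Tlr5*, the flagellin receptor, was at 0.707 and 0.662 CPM against 1.31 and 1.88 CPM (log2 fold change 1.21, FDR 0.436), which is 10 to 29 counts per library. *Tlr8* was at 0.707 and 0.992 CPM against 1.31 and 2.00 CPM (log2 fold change 0.96, FDR 0.529), which is 10 to 31 counts per library. *Tlr6* had a log2 fold change of −0.17 (FDR 0.849).

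*Tlr8* and *Tlr1* were also the genes whose levels followed *Tlr7* most closely among 142 pathway and marker genes. The measure was the root mean square difference of log2 CPM centred over the 4 libraries, 0.204 for *Tlr8* and 0.264 for *Tlr1*. For *Unc93b1* the closest were *Ticam1*, the adaptor of *Tlr3* (0.0688), and *Irf1* (0.0730), and for *Myd88* they were the endosomal proteases *Lgmn* (0.0392) and *Ctsb* (0.0777). With 4 libraries, of which 1 stood apart, such likeness is a description, and for *Tlr8* it rests on 10 to 31 counts per library.

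Among the co-receptors, 4 of 5 were lower at a median of −0.28. *Cd36*, a scavenger receptor that assists *Tlr2*, was at 219 and 199 CPM in WT EPs and at 178 and 167 CPM in the libraries labelled TopBP1cKO (log2 fold change −0.28, FDR 0.464), and *Cd14*, which hands lipopolysaccharide to *Tlr4*, had a log2 fold change of −0.95 at 13 to 35 counts (FDR 0.509). Of 5 adaptors, 4 were lower at a median of −0.30. *Pik3ap1*, an adaptor that links TLRs to phosphoinositide 3-kinase, was at 396 and 398 CPM in WT EPs and at 328 and 317 CPM in the libraries labelled TopBP1cKO (log2 fold change −0.30, FDR 0.420), and *Tirap*, the bridge from *Tlr2* and *Tlr4* to *Myd88*, had a log2 fold change of −0.30 (FDR 0.498).

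The genes for folding and trafficking were divided, 4 of 9 being higher. *Lrrc59*, an endoplasmic reticulum protein that works with *Unc93b1*, was at 78.1 and 80.5 CPM in WT EPs and at 95.0 and 127 CPM in the libraries labelled TopBP1cKO (log2 fold change 0.49, SE 0.16, FDR 0.353). *Hsp90b1*, the folding chaperone of TLRs, was at 838 and 860.3 CPM against 925 and 1381 CPM (log2 fold change 0.44, FDR 0.486). *Slc15a3*, an endolysosomal peptide transporter, had a log2 fold change of 0.64 (FDR 0.394). Thus *Lrrc59* and *Hsp90b1* were highest in TopBP1cKO replicate 2, the library in which *Unc93b1* was lowest.

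The 4 endosomal proteases tested, which cut the receptors into their active form, were all lower, at a median of −0.14 that was 0.030 without TopBP1cKO replicate 2. *Ctss*, the most abundant, was at 652 and 655 CPM in WT EPs and at 661 and 521 CPM in the libraries labelled TopBP1cKO, and *Lgmn* had a log2 fold change of −0.27 (FDR 0.617). Neither passed the test.

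Of the 9 transcription factors, 6 were lower at a median of −0.040. *Irf7*, which drives type I interferon downstream of *Tlr7* and *Tlr9*, was at 433 and 463 CPM in WT EPs and at 367 and 294 CPM in the libraries labelled TopBP1cKO (log2 fold change −0.44, SE 0.14, FDR 0.360). *Irf1* was at 208 and 215 CPM against 179 and 145 CPM (log2 fold change −0.38, FDR 0.380), and *Irf5*, which *Myd88* engages, was at 496 and 493 CPM against 451 and 384 CPM (log2 fold change −0.25, FDR 0.559). TopBP1cKO replicate 2 was the lowest library for each of these 3. The groups did not overlap for 6 of the 9 factors, 3 of them lower (*Irf1*, *Irf5* and *Irf7*; 20.8% of all genes) and 3 higher (the NF-κB subunit genes *Nfkb1*, *Nfkb2* and *Relb*; 22.8% of all genes), with log2 fold changes of 0.15 (FDR 0.687), 0.12 (FDR 0.758) and 0.24 (FDR 0.588) for the latter.

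The kinases and ubiquitin ligases, the inhibitors and the target genes had medians of 0.044, −0.012 and −0.015, with 9 of 14, 4 of 10 and 6 of 13 higher. *Traf3*, a ubiquitin ligase, had a log2 fold change of 0.27 (FDR 0.549), and *Tab2*, which links *Traf6* to its kinase, one of −0.18 (FDR 0.619). Among the inhibitors, *Nfkbia* was at 183 and 208 CPM in WT EPs and at 219 and 172 CPM in the libraries labelled TopBP1cKO, while *Socs1* and *Zc3h12a* had log2 fold changes of −0.61 (FDR 0.586) and 0.25 (FDR 0.658). Among the target genes, the chemokine *Ccl5* was at 11.8 and 13.2 CPM in WT EPs and at 21.2 and 17.1 CPM in the libraries labelled TopBP1cKO (log2 fold change 0.62, FDR 0.347), *Ccl4* had a log2 fold change of −0.99 at 9 to 32 counts (FDR 0.548), and the costimulatory gene *Cd86* one of −0.18 (FDR 0.617).

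**Figure D5:**
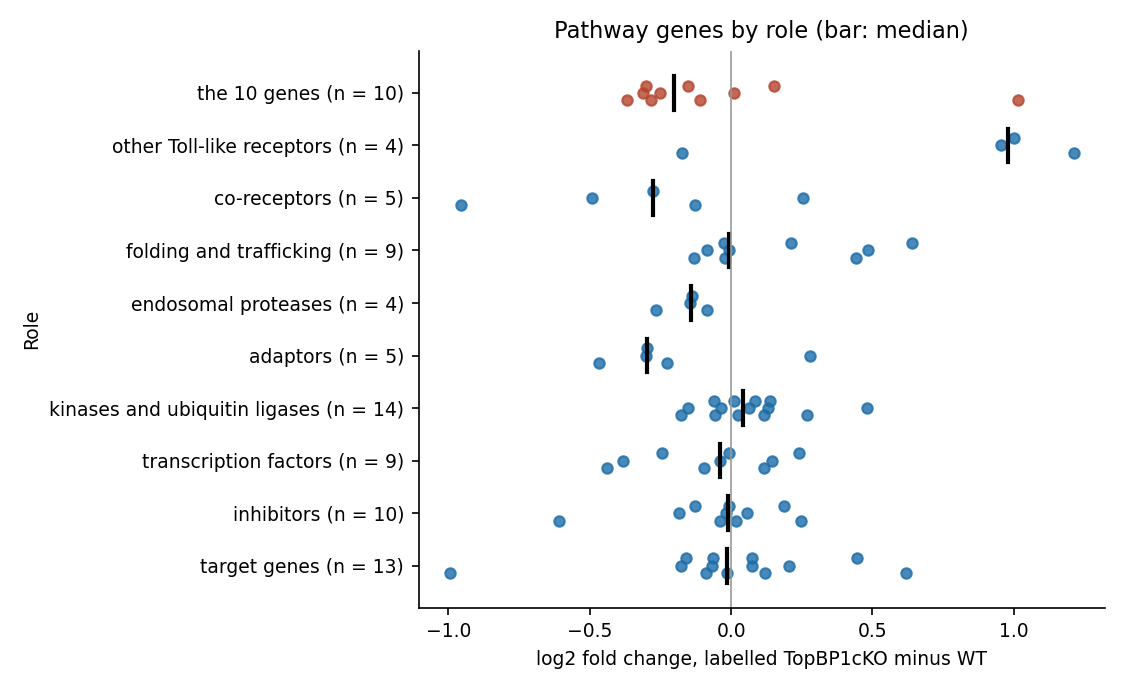
Log2 fold change, labelled TopBP1cKO minus WT, of the 10 genes (red) and of the pathway genes by role (blue), with 1 point per gene and a bar at the median of each role. The other TLRs have the highest median (0.98) and the adaptors the lowest (−0.30), and no point passed FDR 0.05.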

How the data were processed

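The authors deposited, for each of the 4 libraries (CORALL RNA-seq V2 kit), whole-number read counts per RefSeq transcript without normalization. The submitters' processing notes name fastp, STAR, Salmon, GATK and GRCm39 with no role or version. How reads shared by transcripts were divided is not given in the sources used here, nor is whether counts were rounded estimates. RNA was extracted with TaKaRa RNAiso Plus per the labels and with an RNeasy kit per the methods.

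Counts were summed per symbol. Genes passing filterByExpr (12393) were compared by edgeR 4.0.16 (R 4.3.3; TMM, glmQLFit, glmQLFTest, trended dispersion) with Benjamini-Hochberg adjustment over all of them (FDR 0.05). CPM used TMM effective library sizes, and the biological coefficient of variation was 15.2%. The smallest P value that an exact permutation test of 2 libraries against 2 can give is 0.333. No libraries were duplicates (smallest ratio of chi-square to degrees of freedom 11.3). The fit was tested on simulated data. Alternatives included DESeq2 1.42.0 and limma 3.58.1. Lengths came from GENCODE M21 transcripts.

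The 10 genes and all lists were chosen with earlier results of these data known. Named pathway genes were, per role, the 2 with the smallest P value and the most abundant one, and the 2 closest in pattern to the 3 most variable of the 10 genes. *Tlr6*, *Nfkb1*, *Nfkb2* and *Relb* are named in addition, picked once their values had been seen.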

Additional observations from a re-analysis of the deposited data

How the results depend on the processing

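None of the 10 genes passed FDR 0.05 under any of the 8 alternatives that kept all 4 libraries (scaling by upper quartile or by DESeq2 size factors, limma-voom, the likelihood ratio test of edgeR, the Wald test of DESeq2, a minimum of 10 counts in every library or no filter, and the replicate block), and each of the 10 kept its direction. With each library left out in turn, between 0 and 7 passed. The direction turned for *Tlr3* (from −0.068 without TopBP1cKO replicate 2 to 0.33 without TopBP1cKO replicate 1) and for *Tlr4* (from −0.17 without WT replicate 2 to 0.20 without WT replicate 1, and −0.011 without TopBP1cKO replicate 2). *Topbp1* ran from −0.61 without TopBP1cKO replicate 2 (FDR 0.0104) to 0.11 without TopBP1cKO replicate 1. Genes above both WT libraries numbered 1 of the 10, and 2 with TopBP1cKO replicate 2 taken alone, an alternative chosen after seeing the data.

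Among the pathway genes, 0 passed, but 1 (*Tlr1*) did under the likelihood ratio test (FDR 0.0464) and 1 (*Tlr1*) with the replicate block (FDR 0.0121), and 0 to 16 did with a library left out, 16 without TopBP1cKO replicate 1. Over all genes tested, 13 passed, against 139 by the DESeq2 Wald test, 234 by the likelihood ratio test and 504 with the replicate block, and from 1 without WT replicate 2 to 2625 without TopBP1cKO replicate 1. The cause was not tested. Deviations from the group mean were not correlated between libraries of the same replicate number (correlation −0.00665). With 2 libraries per group, this value cannot settle whether the replicate numbers mark a pairing. With the mean transcript length, 3 of the 10 genes kept their rank. Transcripts were described by counts and not fitted one by one. At 33 to 140 counts, *Tlr7* was limited most by depth among the 10.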
